A study of Mus musculus with 24 samples.

Results

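Amino acids enter a mammalian cell through carriers of the solute carrier families, and 9 genes for such carriers of the plasma membrane are described here: *Slc7a1*, *Slc7a3*, *Slc7a5*, *Slc7a11*, *Slc3a2*, *Slc1a4*, *Slc1a5*, *Slc38a2* and *Slc6a9*. They were picked by symbol from a gene table of 55487 entries, with earlier results of these data known. All 9 had enough counts to be among the 15401 genes tested. The table came from polyadenylated RNA of mouse embryonic fibroblasts (MEFs), either wild type (WT) or lacking the transcription factors TFEB and TFE3 (*tfeb tfe3* DKO). Each genotype was given DMSO as the vehicle, torin1, an inhibitor of the kinase MTOR, or MK-8722, an activator of the kinase AMPK. This gave 6 groups of 4 libraries, 24 in all, and treatment length and cell age are not given in the sources used here. The replicates were passages of the cells, 7, 8, 9 and 11 for WT and 8, 9, 10 and 11 for DKO, so the spread between them is that between passages of a line. Any other difference between the WT and the DKO cells cannot be told apart from the loss of the 2 factors.

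Carriers of this kind differ in what they move and in what they exchange it for. SLC7A5 and SLC7A11 are light chains that reach the membrane only when joined to the heavy chain SLC3A2: the first pair imports large neutral amino acids such as leucine, and the second imports cystine in exchange for glutamate. SLC7A1 and SLC7A3 carry the cationic amino acids arginine and lysine, SLC1A4 and SLC1A5 exchange small neutral amino acids including serine and glutamine, SLC38A2 takes up small neutral amino acids together with sodium, and SLC6A9 takes up glycine. Several of these genes are textbook targets of ATF4, a transcription factor made when amino acids are short or when MTORC1 is active, which binds a composite element with the core TGATGNAA. TFEB and TFE3 bind the E-box CACGTG in genes of the lysosome.

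The start regions of the members are shown first, as a description of sequence. RefSeq start windows on GRCm38.p6, 250 bases before to 50 bases after the start, were matched by symbol for 6 members, 9 windows in all, and not for *Slc7a3*, *Slc7a5* and *Slc1a5*. TGATGNAA, searched on both strands, was in the windows of *Slc7a11* and *Slc1a4* and in 3.97% of all 32851 windows. The *Slc7a11* stretch from -100 to -1 lies at chr3:50443614-50443713 and the *Slc1a4* stretch from -60 to 4 at chr11:20332710-20332773, both on the minus strand and written 5′ to 3′, with matches to the core in capitals:
Slc7a11: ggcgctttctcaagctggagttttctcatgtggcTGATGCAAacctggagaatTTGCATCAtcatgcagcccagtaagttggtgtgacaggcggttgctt
Slc1a4: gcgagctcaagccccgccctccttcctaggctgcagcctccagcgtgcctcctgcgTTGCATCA
In *Slc7a11* the core was present on each strand, at -66 to -59 and at -47 to -40, and in *Slc1a4* it spanned the start, at -4 to 4. CACGTG was in 0 of the 9 windows and in 7.15% of all windows. TGACNNNGC, the core bound by the oxidative stress factor NRF2, was in windows of *Slc6a9*, *Slc7a1* and *Slc38a2* and in 12.4% of all windows. No match of one motif overlapped a match of another in these windows. A match is a description of the letters only, and no link between a match and a response to torin1 or MK-8722 was tested.

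Library totals ran from 24668921 to 33332562 estimated counts. *Tfeb* stood between 14.01 and 24.97 CPM, counts scaled to a common library size, in the 12 WT libraries and between 1.34 and 2.65 in the 12 DKO libraries. *Tfe3* stood between 77.5 and 122 CPM in WT and between 89.5 and 126 CPM in DKO, so its counts do not check the label. Of 10 fibroblast markers, 9 were over 1 CPM in every library. The summed markers of epithelial cells stayed at or under 2.72 CPM, of endothelial cells at or under 1.31 and of neural cells at or under 0.280. Those of leukocytes summed to between 1.63 and 14.3 CPM. Among the 5 leukocyte markers *Cd68* was over 1 CPM in every library. The other 4 stayed under 1 CPM, with *Adgre1* at 0 throughout. The library from the earliest passage was often the highest of its group for the members, though less so in WT cells. At DKO passage 8, 8 of the 9 members had their highest DMSO value, 9 of 9 their highest MK-8722 value and 7 of 9 their highest torin1 value. At WT passage 7 this held for 6 of 9 in the DMSO group and in the MK-8722 group, but for only 3 of 9 in the torin1 group. The members are correlated across libraries, and the share of all genes tested with such a rank is not given here. The replicate of the lowest RNA integrity number, 7.9, was the DKO MK-8722 library of passage 10.

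Compared per transcript length, as TPM, which divide the counts of each transcript by its length, the members spanned a wide range under DMSO. In WT cells the heavy chain gene *Slc3a2* was at 344 ± 37.3 TPM (mean ± SD, n = 4) and its partner *Slc7a5* at 291 ± 27.8, and the ranges of the pair overlapped. *Slc38a2* followed at 161 ± 9.62 and *Slc1a5* at 76.8 ± 9.46, each apart from its neighbours. *Slc7a1*, *Slc6a9* and *Slc1a4*, at 56.4 ± 3.31, 45.8 ± 12.2 and 32.8 ± 5.39 TPM, overlapped from one to the next. The cystine carrier gene *Slc7a11*, at 5.35 ± 1.49 TPM, and the cationic carrier gene *Slc7a3*, at 4.45 ± 1.86 TPM, were lowest and overlapped. The order of the means was the same in DKO cells, where *Slc7a3* was at 0.591 ± 0.517 TPM and no longer overlapped *Slc7a11* at 4.71 ± 1.75, while *Slc1a5*, at 61.8 ± 12.7, overlapped *Slc7a1* at 59.8 ± 3.16.

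**Figure D1:**
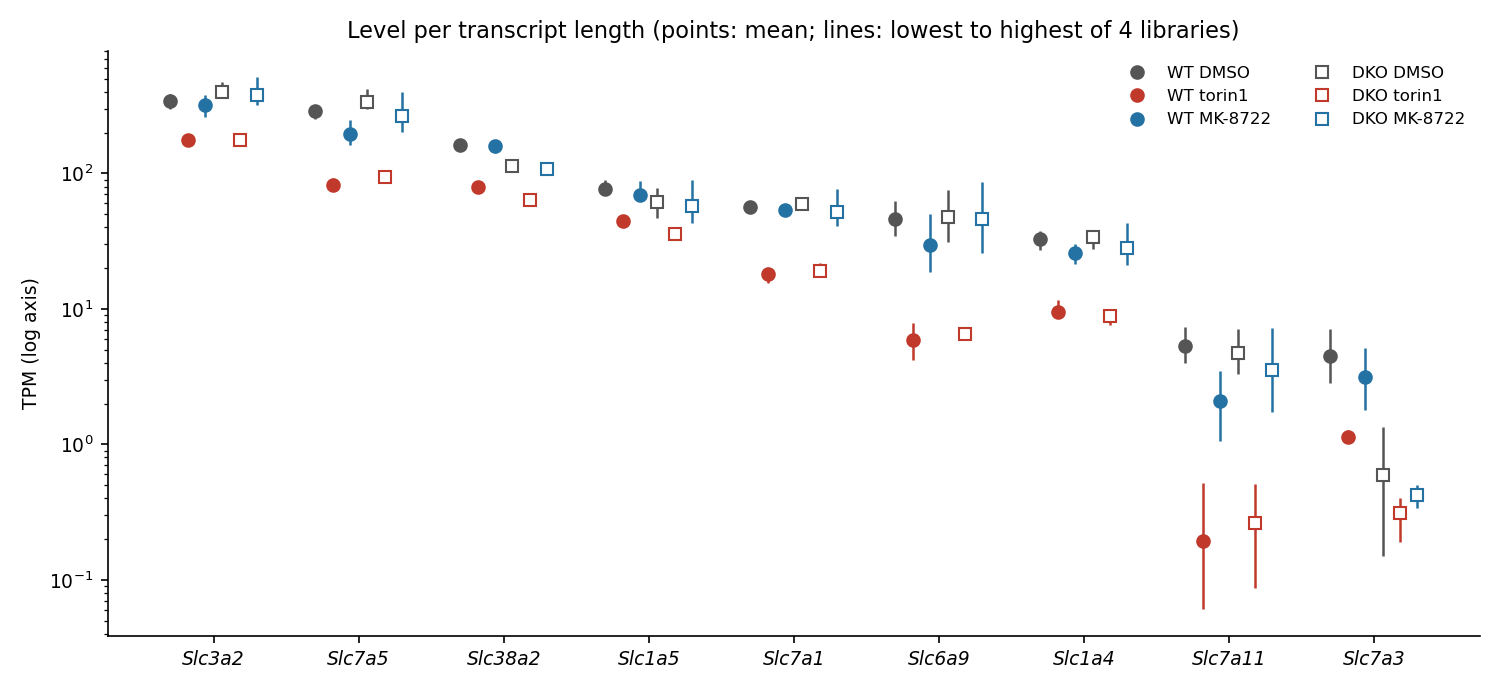
Level of each member in TPM (vertical log axis) in the 6 groups, with points at the mean of 4 libraries and lines from the lowest to the highest library, circles for WT and open squares for DKO. Under DMSO *Slc3a2* and *Slc7a5* stood highest in both genotypes, and torin1 brought *Slc7a11* to the lowest levels in WT cells, with a mean of 0.193 TPM.

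Torin1 lowered the mRNA of all 9 carriers in WT cells. In each of them the 4 torin1 libraries lay below the 4 DMSO libraries. The share of all genes tested with such a separation is not given here. Log2 fold changes ran from -5.00 to -0.89 with a median of -1.87, against a median of 0.05 over all genes tested. Calls required an adjusted p under 0.05 and a change of at least 1.2-fold, and 20.5% of all genes tested were called lower and 26.6% higher. A lower count in a bulk library cannot tell fewer cells with the mRNA from less mRNA per cell.

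The cystine carrier gene *Slc7a11* (ENSMUSG00000027737, chr3:49892526-50443614 on GRCm38, minus strand) fell furthest of the members. Its CPM, in rising order of passage as for all lists of 4 values here, was 26.5, 16.3, 21.1 and 17.4 in WT cells with DMSO and 0.690, 0.394, 0.349 and 1.08 with torin1. The torin1 values rest on 11 to 33 estimated counts per library, and passage 11 was the highest of them. The log2 fold change was -5.00 ± 0.48 (SE, adjusted p = 5.32e-09), a 32.0-fold fall. The annotation places an antisense gene within this locus. The estimated counts of *Slc7a11* were not whole, within 0.01, in 15 of 24 libraries, so some reads were shared with other models. Which models these are was not tested.

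Both chains of the leucine carrier fell, the light chain by more. *Slc7a5* (ENSMUSG00000040010, chr8:121881150-121907694, minus strand) was at 665, 532, 654 and 629 CPM with DMSO and at 166, 159, 154 and 185 with torin1. *Slc3a2* (ENSMUSG00000010095, chr19:8706882-8723369, minus strand), the heavy chain shared with *Slc7a11*, was at 373, 289, 338 and 331 and at 148, 146, 149 and 169 CPM. No torin1 library of either gene reached the lowest DMSO library. The log2 fold change was -1.90 ± 0.17 (SE, adjusted p = 2.02e-09) for *Slc7a5* and -1.12 ± 0.13 (SE, adjusted p = 1.72e-07) for *Slc3a2*. The ratio of *Slc7a5* to *Slc3a2* in TPM went from 0.847 ± 0.037 (SD, n = 4) with DMSO to 0.470 ± 0.029 with torin1 in WT cells, and from 0.847 ± 0.032 to 0.538 ± 0.0015 in DKO cells. The ranges of this ratio did not overlap between DMSO and torin1. With MK-8722 it was 0.608 ± 0.066 in WT and 0.689 ± 0.066 in DKO cells, and these ranges also lay below those with DMSO. No test of the ratio was run.

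Of the glycine and neutral amino acid carriers, *Slc6a9* fell most. *Slc6a9* (ENSMUSG00000028542, chr4:117834506-117875198, plus strand) was at 104, 65.2, 85.0 and 71.6 CPM with DMSO and 11.7, 7.81, 9.47 and 14.005 with torin1, a log2 fold change of -2.92 ± 0.36 (SE, adjusted p = 3.01e-07). Its locus overlaps other annotated genes on the opposite strand. *Slc38a2* (ENSMUSG00000022462, chr15:96687392-96699730, minus strand), a gene known to be induced when amino acids are short, was at 461, 507, 524 and 488 CPM and 254, 251, 211 and 215 CPM. It changed by -1.09 ± 0.07 (SE, adjusted p = 4.36e-12) on the log2 scale, the smallest standard error among the members. *Slc1a4* (ENSMUSG00000020142, chr11:20302180-20332713, minus strand) lay at 69.1 to 94.2 CPM with DMSO and 20.8 to 27.3 with torin1, with a log2 fold change of -1.87 ± 0.18 (SE, adjusted p = 5.24e-09). *Slc1a5* (ENSMUSG00000001918, chr7:16781340-16798274, plus strand), of the same family, lay at 85.9 to 107 and 46.5 to 53.9 CPM, again without overlap, and had the smallest change of the 9, -0.89 ± 0.16 (SE, adjusted p = 4.06e-05).

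The 2 cationic carrier genes fell as well, from very different levels. *Slc7a1* (ENSMUSG00000041313, chr5:148327410-148399904, minus strand) was at 234, 246, 258 and 228 CPM with DMSO and 81.1, 74.2, 62.8 and 70.8 with torin1, with a log2 fold change of -1.74 ± 0.14 (SE, adjusted p = 1.92e-10). *Slc7a3* (ENSMUSG00000031297, chrX:101079210-101086020, minus strand) was at 10.5, 4.74, 5.69 and 4.34 CPM and 1.54, 1.36, 1.62 and 1.53 CPM, with a log2 fold change of -2.06 ± 0.30 (SE, adjusted p = 2.59e-06). The DMSO library of passage 7 held more *Slc7a3* than the other three, which lay between 4.34 and 5.69 CPM, and all of them lay above the torin1 libraries.

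**Figure D2:**
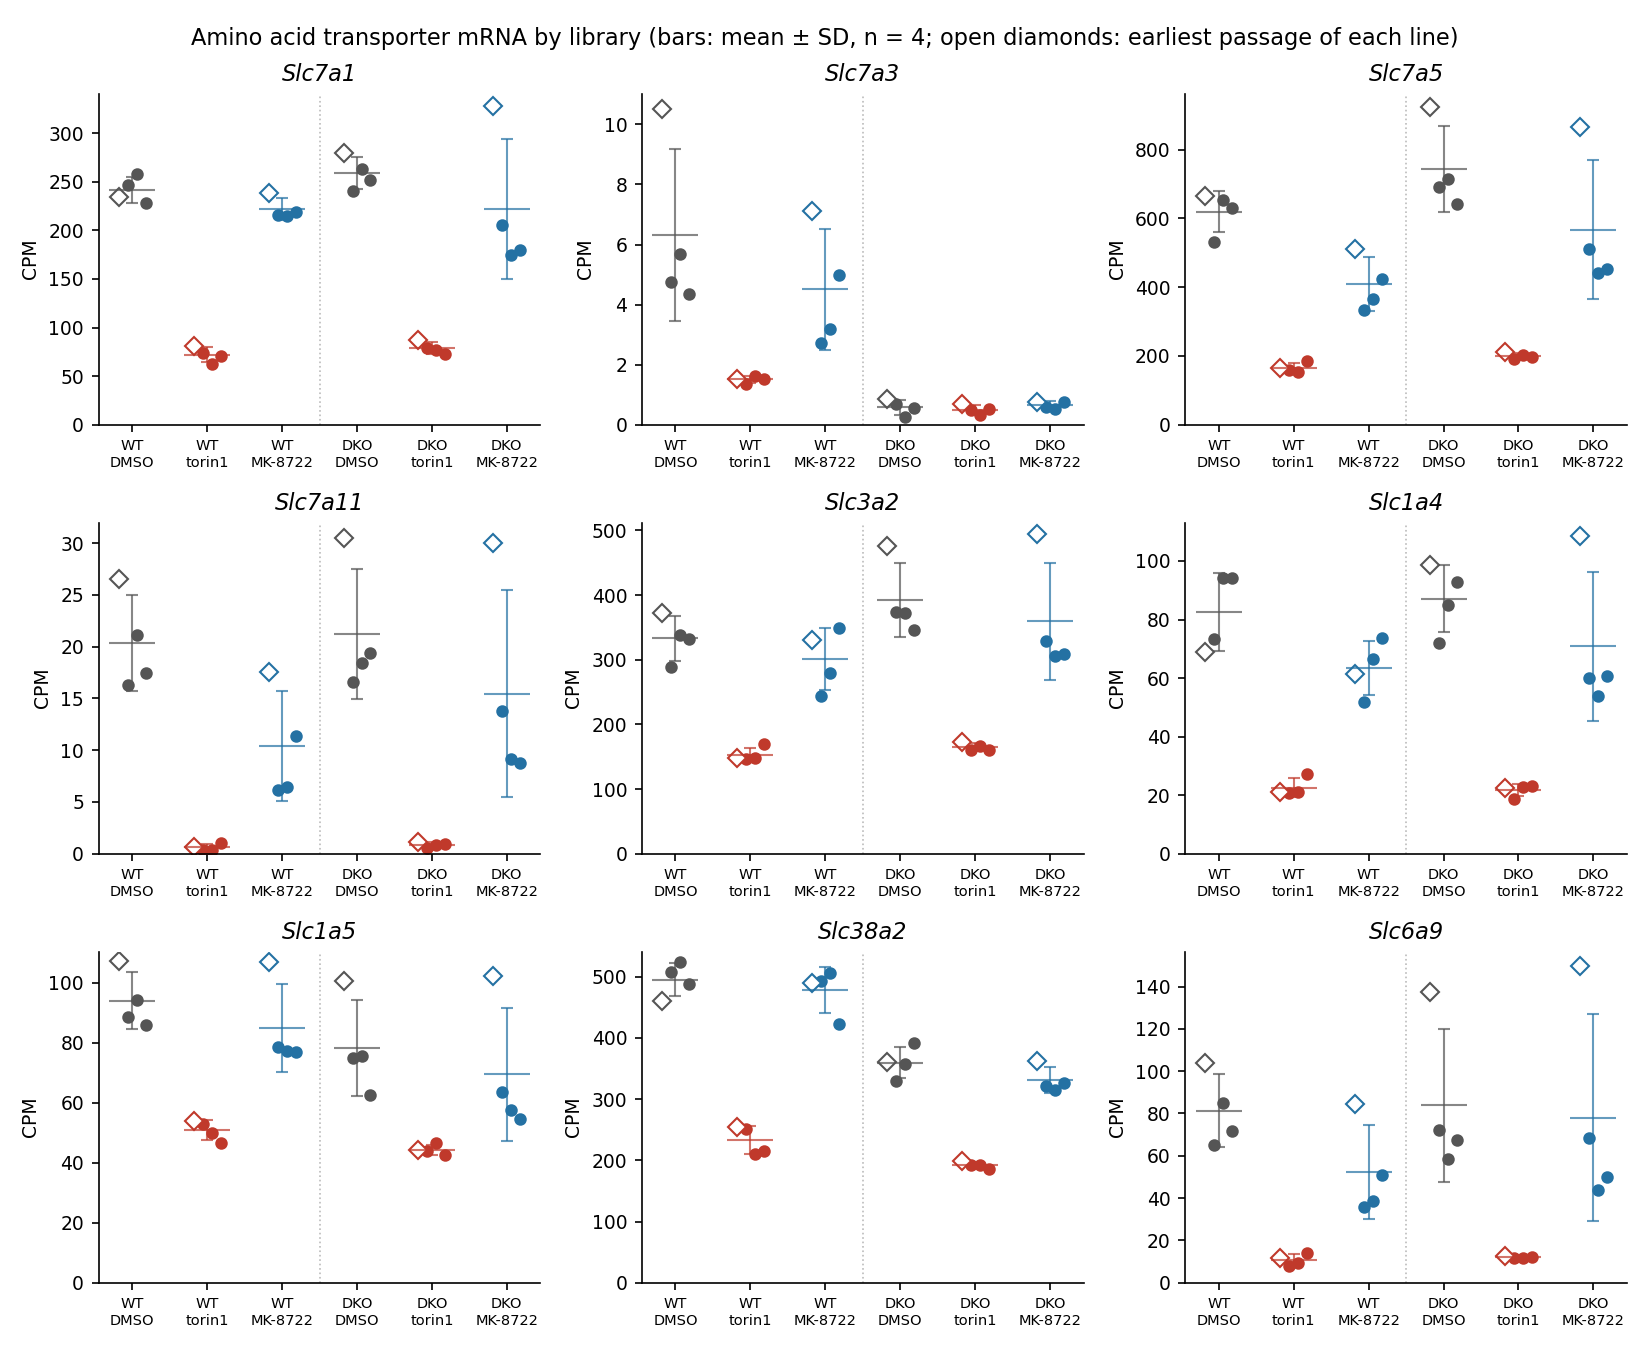
CPM of each member in every library (vertical axis, linear from 0) by group, with horizontal bars for the mean and error bars for the SD of 4 libraries, and open diamonds for the earliest passage, 7 in WT and 8 in DKO. Torin1 libraries lie below DMSO libraries in every panel except *Slc7a3* in DKO cells, and the DKO MK-8722 library of passage 8 is the highest of its group for all 9 genes.

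In DKO cells torin1 lowered 8 of the 9 members, where 20.2% of all genes tested were called lower and 23% higher. The median log2 fold change of the members was -1.71, against 0.02 over all genes tested. *Slc7a11* was at 30.5, 16.6, 18.4 and 19.4 CPM with DMSO and 1.11, 0.523, 0.826 and 0.919 with torin1, a log2 fold change of -4.64 ± 0.46 (SE, adjusted p = 1.25e-08). *Slc6a9* was at 137, 72.4, 58.4 and 67.3 and 12.9, 11.6, 11.5 and 12.3 CPM, a log2 fold change of -2.80 ± 0.36 (SE, adjusted p = 5.78e-07). The 4 torin1 values of *Slc6a9* lay close together although the passage 8 DMSO library stood high. *Slc7a5* changed by -1.89, *Slc1a4* by -1.998, *Slc7a1* by -1.71, *Slc3a2* by -1.25, *Slc38a2* by -0.90 and *Slc1a5* by -0.82 on the log2 scale. The exception was *Slc7a3*, at 0.854, 0.682, 0.269 and 0.548 CPM with DMSO and 0.679, 0.485, 0.323 and 0.515 with torin1, where the groups overlapped and the log2 fold change was -0.21 ± 0.46 (SE, adjusted p = 0.716). Between 7 and 20 counts per library stood behind the DKO values of *Slc7a3* with DMSO, and between 9 and 19 with torin1.

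The response to torin1 was then compared between the genotypes, as the log2 fold change in DKO minus that in WT. Of the 9 members only *Slc7a3* was called, at 1.85 ± 0.55 (SE, adjusted p = 0.025), with 4.68% of all genes tested called higher and 6.33% lower. This call, from low counts in DKO cells, was lost in the fit without the DKO passage 8 libraries (adjusted p = 0.0635), without DKO DMSO replicate 3 or DKO torin1 replicate 4 alone, and under several other settings given in the closing section. For *Slc38a2* the difference was 0.19 ± 0.09 (SE, adjusted p = 0.201), with a 95% interval of -0.01 to 0.38. The intervals of *Slc7a1* (-0.36 to 0.41), *Slc7a5* (-0.48 to 0.49), *Slc3a2* (-0.52 to 0.26), *Slc1a4* (-0.64 to 0.39) and *Slc1a5* (-0.40 to 0.53) took in 0. Those of *Slc6a9* (-0.89 to 1.14) and *Slc7a11* (-1.19 to 1.92) were wide enough to hold a difference of more than 1 on the log2 scale.

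**Figure D3:**
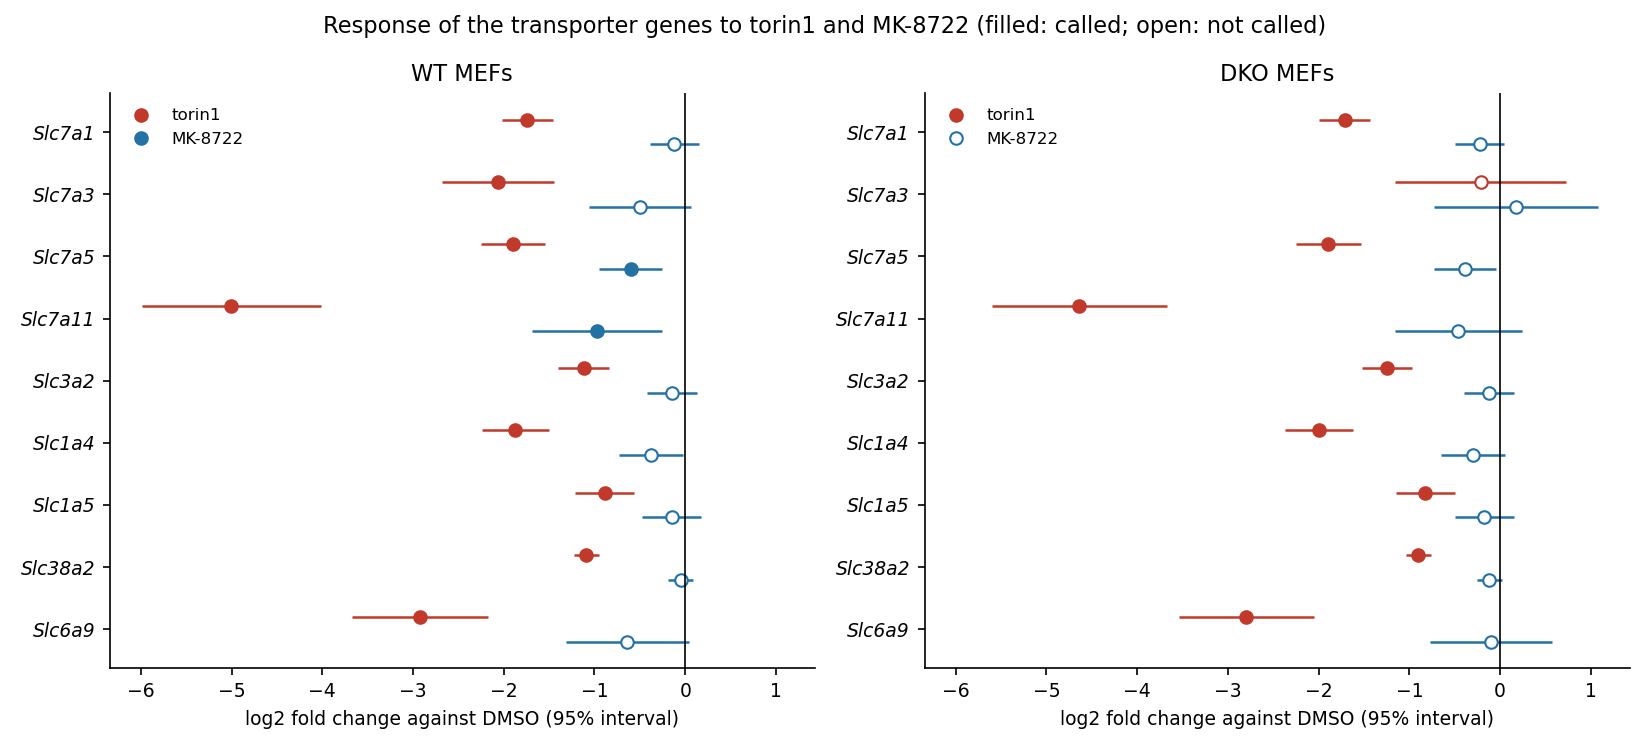
Log2 fold change of each member with torin1 (red) and MK-8722 (blue) against DMSO in WT (left) and DKO (right) MEFs, with 95% intervals and filled points for called changes. All torin1 points are filled except *Slc7a3* in DKO, and filled MK-8722 points are *Slc7a5* and *Slc7a11* in WT.

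MK-8722 moved fewer of the carriers, and those it moved fell. In WT cells 2 of 9 were called lower and 0 higher, where 5.87% of all genes tested were called lower and 10.3% higher. *Slc7a5* was at 512, 334, 366 and 423 CPM with MK-8722, below each DMSO library, with a log2 fold change of -0.60 ± 0.17 (SE, adjusted p = 0.00744). *Slc7a11* was at 17.6, 6.19, 6.49 and 11.3 CPM, where the passage 7 library reached into the DMSO range, and changed by -0.97 ± 0.34 (SE, adjusted p = 0.0342). The *Slc7a11* call was lost when 1 library was left out, for WT DMSO replicates 1 and 4 (passages 7 and 9) and WT MK-8722 replicates 1 and 3 (passages 8 and 9), and with DESeq2, and both calls were lost in a test against a 1.2-fold change. All 9 log2 fold changes were below 0, with a median of -0.38, against -0.01 over all genes tested. *Slc6a9*, at 84.3, 35.6, 38.7 and 51.0 CPM, changed by -0.64 ± 0.33 (SE, adjusted p = 0.151), and *Slc1a4*, at 52.0 to 73.8 CPM, by -0.38 ± 0.17 (SE, adjusted p = 0.0945), and neither was called. *Slc38a2* had a log2 fold change of -0.05 with an adjusted p of 0.624.

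In DKO cells 0 of 9 members were called with MK-8722 by edgeR's quasi-likelihood test, where 3.21% of all genes tested were called lower and 5.47% higher. 1 of the 9 had an unadjusted p under 0.05, and DESeq2 called 0. This count changed without 1 library, and also in the fit with passage as a block described next. The DKO MK-8722 library of passage 8 held *Slc7a5* at 867 CPM while the other three lay between 440.0 and 510.1, and *Slc1a4* at 109 CPM while the others lay between 53.9 and 60.8. Without that library 6 members were called lower, where 4.57% of all genes tested were. That fit drops the highest MK-8722 library of all 9 members. It keeps the DMSO library of passage 8, the highest of its group for 8 of them. The changes are therefore tilted downward by the choice of library. These were *Slc7a5* at -0.67, *Slc7a11* at -1.001, *Slc1a4* at -0.58, *Slc7a1* at -0.47, *Slc1a5* at -0.42 and *Slc3a2* at -0.32 on the log2 scale. Without the passage 8 libraries of all 3 DKO groups, a setting in which 3.84% of genes were called lower in DKO and 6.21% in WT, 3 members were called lower in DKO (*Slc7a1*, *Slc7a5* and *Slc1a4*) and 4 in WT.

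Passage 8 of the DKO cells was high with DMSO too, so the drugs were also compared within passages. In DKO cells the ratio of MK-8722 to DMSO had a median over the members of 1.02 at passage 8, 0.855 at passage 9, 0.754 at passage 10 and 0.745 at passage 11. It was below 1 for 3, 9, 8 and 8 of the 9 members in that order. In WT cells the medians were 0.885, 0.708, 0.707 and 0.867 at passages 7, 8, 9 and 11, with 7, 9, 9 and 7 members below 1. With passage as a block within each genotype, 5 members were called lower in WT (*Slc7a3*, *Slc7a5*, *Slc7a11*, *Slc1a4* and *Slc6a9*), where 7.29% of genes were, and 3 in DKO (*Slc7a5* at -0.42, *Slc7a11* at -0.55 and *Slc1a4* at -0.33), where 4.24% were. A further description used the 1426 genes called with MK-8722 in DKO without passage 8 that also passed the filter over all 24 libraries. Over these the passage 8 pair moved in the same direction for 95.3%, with a median of 0.702 of the fitted change. The genes were picked without that pair, so a median under 1 can come from the choice alone. What set passage 8 apart was not tested.

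**Figure D4:**
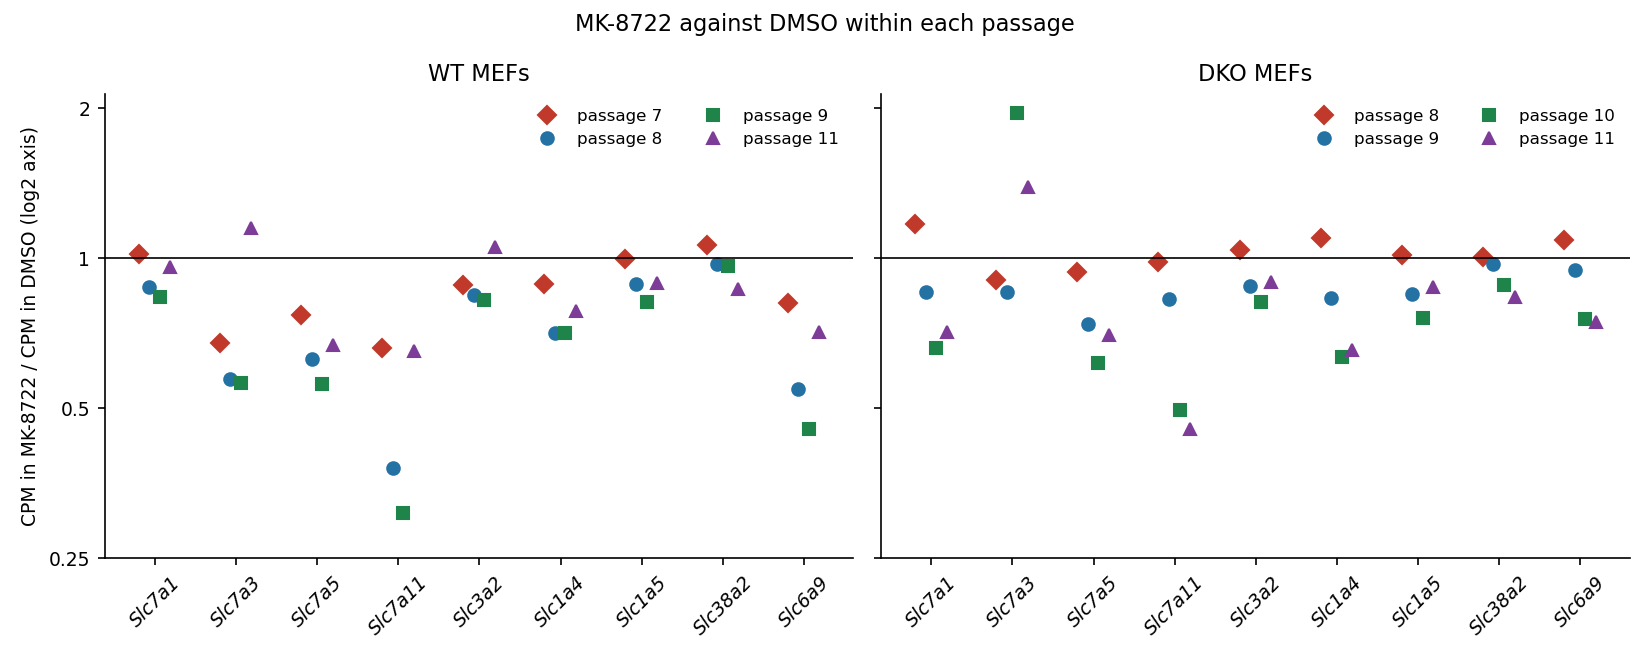
Ratio of CPM with MK-8722 to CPM with DMSO within each passage (vertical log2 axis) for the 9 members in WT (left) and DKO (right) MEFs, 1 point per passage. In DKO the passage 8 points lie at or near 1, between 0.903 and 1.17, and the *Slc7a3* points at passages 10 and 11 lie above 1.

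No member was called for a difference between the genotypes in its response to MK-8722, where 1.42% of all genes tested were called higher and 4.08% lower. 0 of the 9 had an unadjusted p under 0.05, and DESeq2 called 0. The interval for *Slc7a5* ran from -0.27 to 0.70 and that for *Slc38a2* from -0.26 to 0.13. The interval for *Slc7a11* ran from -0.48 to 1.51, wide enough to hold a difference of more than 1 in DKO against WT. Set directly against MK-8722, torin1 gave lower levels of 9 of 9 members in WT, with 20% of all genes tested called lower and 24.9% higher, and of 8 of 9 in DKO, with 19.3% lower and 21.1% higher. The 2 drugs share no dose scale, and the comparison describes these treatments only. The log2 difference was -4.03 ± 0.49 (SE, adjusted p = 2.78e-07) for *Slc7a11* and -1.04 ± 0.07 (SE, adjusted p = 1.45e-11) for *Slc38a2* in WT, and *Slc7a3* in DKO was not called at -0.39 ± 0.44 (SE, adjusted p = 0.488).

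DKO cells held less *Slc7a3* and *Slc38a2* than WT cells under DMSO, and the other 7 members were not called. There 24.6% of all genes tested were called lower in DKO and 23.5% higher. *Slc7a3*, at 4.34 to 10.5 CPM in WT, was at 0.269 to 0.854 CPM in DKO, a log2 fold change of -3.43 ± 0.35 (SE, adjusted p = 1.06e-08), or 10.8-fold lower. *Slc38a2* was at 359.9, 330.1, 356 and 391 CPM in DKO, below every WT library, with a log2 fold change of -0.46 ± 0.07 (SE, adjusted p = 2.26e-06). The changes of the other 7 lay between -0.26 for *Slc1a5* and 0.26 for *Slc7a5*. *Slc1a5* was called lower in DKO without the DKO passage 8 libraries, at -0.40 (adjusted p = 0.00231), without the DKO DMSO library of that passage alone, at -0.41 (adjusted p = 0.029), and without its MK-8722 library alone, at -0.26 (adjusted p = 0.048). For *Slc6a9* the interval ran from -0.63 to 0.71 and for *Slc7a11* from -0.63 to 0.75.

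The same pair of genes was lower in DKO under each drug. Under torin1 2 members were called lower, near the share of 27.8% of all genes tested, and 24% of all genes were called higher. *Slc7a3* was at -1.59 ± 0.39 (SE, adjusted p = 0.000992) and *Slc38a2* at -0.27 ± 0.07 (SE, adjusted p = 0.00095). The size of the *Slc38a2* change under torin1 was close to the 1.2-fold limit, and the call was lost in a test against that fold, with a transcript length offset, and without WT torin1 replicate 3 or 4 or DKO torin1 replicate 2. Under MK-8722 *Slc7a3* was at -2.77 ± 0.34 (SE, adjusted p = 2.55e-07) and *Slc38a2* at -0.53 ± 0.07 (SE, adjusted p = 3.11e-07). There 25.4% of genes were called lower and 23.3% higher, so the count of members called lower is again near that share. *Slc7a5* was called higher in DKO under MK-8722, at 0.47 ± 0.17 (SE, adjusted p = 0.0163). The DKO values of *Slc7a5* under MK-8722 were 867, 510.1, 440.0 and 452 CPM, and without the passage 8 libraries the log2 fold change was 0.19 and not called. *Slc1a5*, at -0.29 ± 0.16 (SE, adjusted p = 0.116) under MK-8722, was called lower without those libraries, at -0.53 (adjusted p = 0.000192), without the DKO MK-8722 library of passage 8 alone, at -0.53 (adjusted p = 0.000821), and when scaled by library size alone, at -0.37 (adjusted p = 0.0445).

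**Figure D5:**
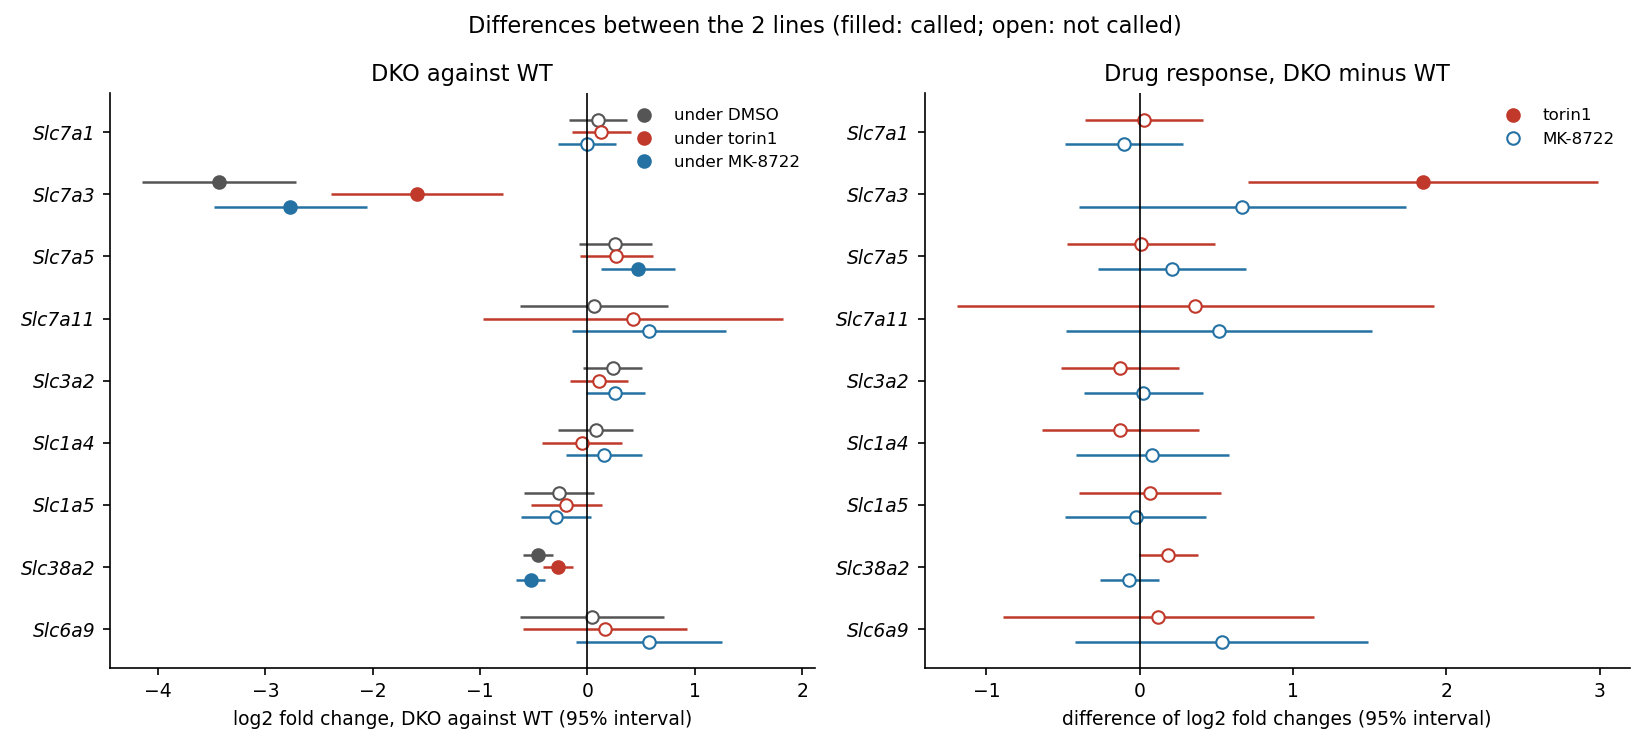
Left, log2 fold change of each member in DKO against WT under DMSO, torin1 and MK-8722; right, the difference of the drug response between DKO and WT; bars are 95% intervals and filled points are called. *Slc7a3* and *Slc38a2* lie below 0 in all 3 comparisons on the left, and *Slc7a3* with torin1 is the filled point on the right.

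The members rose and fell together across libraries. After the mean of each genotype was removed, the Pearson correlation of log2 CPM over the 24 libraries was between 0.620 and 0.987 for the 36 pairs of members, with a median of 0.946, and all of these values include the low torin1 libraries. After the mean of each of the 6 groups was removed, it was between -0.18 and 0.95 for the 36 pairs, with a median of 0.658, and between 0.427 and 0.948 for the 21 pairs among the 7 genes other than *Slc7a3* and *Slc38a2*. The closest pair was *Slc7a5* with its heavy chain *Slc3a2*, at 0.948. The lower values were those of *Slc38a2*, from -0.18 to 0.57 against the other 8, and of *Slc7a3*, from -0.18 to 0.66. These libraries share passages and depth, so the values are a description and carry no test.

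For each member the 2 genes of the whole table with the most similar genotype-centred log2 CPM were named, and among them were enzymes that charge tRNA or handle amino acids. For *Slc7a5* they were *Bcat1* (r = 0.995), which transaminates branched-chain amino acids, and *Tars* (r = 0.993), the threonyl-tRNA synthetase. For *Slc7a11* they were *Yars* and *Cars* (r = 0.991 for each), and for *Slc6a9* *Gars* and *Nars* (r = 0.989 for each), which load tyrosine, cysteine, glycine and asparagine. For *Slc3a2* they were *Aldh18a1* (r = 0.988), an enzyme of proline synthesis, and *Gpt2* (r = 0.987), an alanine transaminase. *Atf4* itself was among the 2 most like *Slc7a1* (r = 0.991, beside *Dhrs9* at 0.991) and the 2 most like *Slc1a4* (r = 0.986, beside *Zdhhc5* at 0.986). *Slc1a5* was most like *Phf10* (r = 0.975) and *Zfp598* (r = 0.975), and *Slc38a2* most like *Ppp2ca* (r = 0.985) and *Tdg* (r = 0.985). *Slc7a3* had no close match, its first being *Kctd15* (r = 0.821) and *Gm4430* (r = 0.819). All values are over 24 libraries and include the torin1 libraries, where the members were mostly low. By rank (Spearman) correlation *Slc7a1* with *Atf4* was at 0.908. No function is read from these values.

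The share of each gene's TPM held by its leading isoform differed between members. *Slc7a5-201* held between 93.3% and 95.2% of the gene's TPM as a mean of each of the 6 groups, *Slc38a2-201* between 93.2% and 95.8%, and *Slc7a1-201* between 86.4% and 88.9%. *Slc3a2-201* held 50.3% to 58.9%, *Slc1a4-202* 51.6% to 54.7%, *Slc1a5-201* 42.6% to 47.0% and *Slc6a9-202* 35.2% to 42.4%. For *Slc7a3* and *Slc7a11* the share could not be read in the groups of low counts, where single libraries ran from 0% to 86.5% and from 29.6% to 100%. As group means *Slc7a11-201* held 56.1% with DMSO and 82.0% with MK-8722 in WT, and 68.0% and 67.4% in DKO. Its single WT libraries ran from 50.8% to 61.2% with DMSO and from 72.3% to 100% with MK-8722. *Slc7a3-201* held 33.7% to 45.2% as means of the WT groups. No test of the shares was run.

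Other genes of amino acid handling were counted from lists. Like the members, the lists were chosen with earlier results of these data known. Contrasts between lists and members are therefore descriptions only. Of 27 further plasma membrane amino acid carrier genes 15 were tested, and torin1 in WT raised 6 and lowered 4, with a median log2 fold change of 0.20, against 0.05 over all genes tested and -1.87 for the 9 members. Over all genes tested 26.6% were called higher and 20.5% lower in this comparison, so the 4 that fell are near that share. *Slc7a2*, another cationic carrier gene, rose by 1.28 on the log2 scale, and *Slc43a2*, a neutral amino acid carrier gene, by 0.40. *Slc6a6*, the taurine carrier gene, changed by -1.07 and *Slc7a6*, a light chain gene of the heavy chain *Slc3a2*, by -0.64. In DKO 1 of the 15 rose and 5 fell with torin1, where 23% of all genes tested were called higher and 20.2% lower. In DKO against WT under DMSO 11 of the 15 were lower and 1 higher, where 24.6% of all genes tested were called lower and 23.5% higher.

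Amino acid carriers of the lysosome were counted apart. Of 7 tested genes of this list torin1 in WT raised 5 and lowered 0, where 26.6% of all genes tested were called higher, and MK-8722 raised 4 and lowered 0, where 10.3% were called higher. In DKO torin1 raised 2 of the 7, near the 23% of all genes tested, and MK-8722 raised 0, where 5.47% were called higher. *Ctns*, which exports cystine from the lysosome, rose by 1.74 with torin1 and 1.62 with MK-8722 in WT, and its log2 fold changes in DKO were 0.03 and 0.06. *Slc38a7*, a lysosomal glutamine and asparagine carrier gene, rose by 1.19 and 1.11 in WT and by 0.39 with torin1 in DKO. The difference between the genotypes in the torin1 response was -1.70 ± 0.08 (SE, adjusted p = 7.50e-12) for *Ctns* and -0.79 ± 0.13 (SE, adjusted p = 0.000161) for *Slc38a7*. The starting levels of *Ctns* were unequal. In DKO against WT it was at 0.68 ± 0.06 (SE, adjusted p = 1.32e-09) under DMSO and at -1.02 under torin1. *Slc38a7* was at 0.07 under DMSO, not called, and at -0.72 under torin1.

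Genes of the ATF4 and amino acid response mostly fell with torin1. It lowered 23 of 25 and raised 1 in WT, and lowered 22 and raised 0 in DKO, with medians of -1.76 and -1.57, where 20.5% of all genes tested were called lower in WT and 20.2% in DKO. *Trib3*, a pseudokinase gene induced by ATF4, changed by -3.94 in WT and -4.12 in DKO, and *Chac1*, which degrades glutathione, by -3.05 and -2.35. The gene that rose in WT was *Ppp1r15a*, a phosphatase subunit gene, by 0.31. MK-8722 lowered 6 of the 25 in WT, where 5.87% of all genes tested were called lower, and raised 3, near the 10.3% called higher. In DKO it lowered 2 and raised 0, where 3.21% were called lower and 5.47% higher. Of 11 NRF2 and glutathione genes torin1 lowered 9 in WT and 8 in DKO and raised 0 in either, against the same shares of 20.5% and 20.2% lower, with *G6pdx*, the first enzyme of the pentose phosphate pathway, at -0.89 and *Nqo1*, a quinone reductase, at -0.81 in WT. With MK-8722 1 of these was called higher and 0 lower in WT, near the shares over all genes, and 0 in DKO.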

How the data were processed

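RNA-seq data of 24 libraries from WT and *tfeb tfe3* DKO MEFs were analysed, 4 per group. The authors aligned the reads to GRCm38 with STAR and quantified them with Salmon, with molecular identifiers, and deposited TPM values and estimated counts per gene and per transcript, which are not normalized between libraries beyond the scaling of TPM. The estimated counts were rounded to whole numbers and merged by Ensembl gene.

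Genes were kept by filterByExpr with a minimum count of 10, scaled by TMM in edgeR 4.0.16 (R 4.3.3), and fitted over all 6 groups with edgeR's quasi-likelihood test in its older form, with 18 residual degrees of freedom and Benjamini-Hochberg adjustment over 15401 genes. No batch was removed, since the labels give a single one. The paper names a removal of a batch effect with limma and does not say which batch was meant. CPM use TMM-scaled library sizes. Standard errors were taken from the fold change and its F value. The script was tested on simulated counts. The 36 replicate pairs differed by more than counting noise, so none was treated as a duplicate. Replicate numbers did not pair the libraries: same-numbered libraries of different groups correlated at -0.41 to 0.66, with 13 of 60 over 0.1. Libraries of the same passage and genotype in different groups correlated at 0.022 to 0.657, with 17 of 24 over 0.1 and a median of 0.157. The main fit held no term for passage, which enters as a block only among the alternatives. The genes named in the text follow a rule: all members, *Tfeb* and *Tfe3*, the 2 largest called rises and falls with torin1 in WT of each list provided their average log2 CPM reached 2, and the 2 genes most like each member. Members and lists were chosen with earlier results of these data known. Alternatives were other filters, scalings, tests and fold limits, a transcript length offset, passage or replicate as a block, fewer groups, and leaving out passages or single libraries. Sequences came from RefSeq and positions from GENCODE M21. Intervals cover replicate spread, not systematic error.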

Additional observations from a re-analysis of the deposited data

Results flagged for a closer look

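In groups of 4 libraries, a single library was taken to stand apart when its gap to the nearest of the others exceeded Dixon's critical share of the group's whole range, which chance gives in about 1 of 20 groups. Of the 54 groups of the 9 members, 8 held such a library. Of these 3 were the DKO MK-8722 library of passage 8, which stood high for *Slc7a5* at 867 CPM, *Slc3a2* at 494 CPM and *Slc1a4* at 109 CPM. The WT MK-8722 library of passage 7 stood high for *Slc7a1* at 239 CPM and *Slc1a5* at 107 CPM. The WT torin1 library of passage 11 stood high for *Slc3a2* at 169 CPM and *Slc1a4* at 27.3 CPM, and the DKO torin1 library of passage 9 stood low for *Slc1a4* at 18.8 CPM.

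The response to torin1 differed between the genotypes for *Slc7a3*, by 1.85 on the log2 scale in DKO minus WT, tested by the interaction term. *Slc7a3* rests on 7 to 20 counts in each DKO library with DMSO, and what lies behind the difference was not tested.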

How the results depend on the processing

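The 17 calls of lower expression with torin1 (9 in WT, 8 in DKO) kept their direction and their side of the threshold in all 662 values over 39 other settings. The count for MK-8722 in WT, 2 lower, was 1 with DESeq2's Wald test, 0 in a test against a fold change of 1.2, 5 with passage as a block and 4 without the DKO passage 8 libraries, and that in DKO, 0, was 3 with the passage block and 3 without those libraries. With 1 library left out the WT count ran from 1 to 4. It was 1 without WT DMSO replicate 1 or 4 or WT MK-8722 replicate 1 or 3. It was 4 without WT MK-8722 replicate 4 (passage 7). The DKO count ran from 0 to 6, the 6 without DKO MK-8722 replicate 4 (passage 8). The DMSO library of that passage, also high, was kept there. Of the 2 members lower in DKO, 1 remained under each treatment with a filter of 10 counts in every library, which leaves *Slc7a3* untested, and under torin1 1 remained with no filter, in the test against 1.2-fold and with a transcript length offset, and 1 to 2 with 1 library left out, 1 without WT torin1 replicate 3 or 4 or DKO torin1 replicate 2. Members higher in DKO under torin1, 0, became 1 (*Slc7a5*) in a fit of the compared groups alone, and 0 to 1 with 1 library left out, the 1 without DKO MK-8722 replicate 4. The 1 member higher in DKO under MK-8722 (*Slc7a5*) became 0 in the 1.2-fold test, without DKO passage 8 and with the compared groups alone, and 0 to 3 with 1 library left out, 0 without WT MK-8722 replicate 1 or DKO MK-8722 replicate 4 and 3 without WT MK-8722 replicate 4 or DKO MK-8722 replicate 3. The 1 difference in torin1 response (*Slc7a3*) became 0 with the 10-count filter, the edgeR 4 form, limma voom, the 1.2-fold test, the length offset and without DKO passage 8, and 0 to 2 with 1 library left out, 0 without DKO DMSO replicate 3 or DKO torin1 replicate 4 and 2 without WT torin1 replicate 3. Members called lower for the MK-8722 response, 0, became 0 to 1 with 1 library left out, the 1 being *Slc7a1* without DKO MK-8722 replicate 4. Without DKO passage 8 *Slc1a5* was also called lower in DKO under DMSO, at -0.40, and under MK-8722, at -0.53.

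Signs changed for uncalled values near 0. In DKO against WT under DMSO, *Slc7a11* (0.058) was -0.016 with library size alone, -0.16 with the length offset, -0.048 without WT passage 11 and -0.16 without DKO passage 8, and *Slc6a9* (0.041) was -0.034 with library size alone, -0.032 with voom, -0.053 without WT passage 11 and -0.30 without DKO passage 8. Under torin1 *Slc3a2* (0.11) was -0.020 with library size alone and *Slc1a4* (-0.050) was 0.068 without WT passage 11. Under MK-8722 *Slc7a1* (-0.0028) was 0.0084 with no filter and 0.0026 with the length offset, and *Slc1a4* (0.16) was -0.12 without DKO passage 8. In the torin1 response *Slc7a1* (0.028) was -0.027 and *Slc7a5* (0.0094) was -0.045 with library size alone, and *Slc7a5* was -0.0023 with the replicate block. In the MK-8722 response *Slc3a2* (0.023) was -0.064 and *Slc1a4* (0.082) -0.14 without DKO passage 8, and *Slc1a5* (-0.025) was 0.054 with the length offset. With MK-8722 in DKO *Slc7a3* (0.17) was -0.17 with the length offset.

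With 1 library left out, signs changed within these ranges. With MK-8722 in DKO, *Slc7a3* ran from -0.065 to 0.39 and *Slc6a9* from -0.63 to 0.24. In DKO against WT, *Slc7a11* (-0.17 to 0.21), *Slc1a4* (-0.0012 to 0.15) and *Slc6a9* (-0.31 to 0.18) did so under DMSO, *Slc1a4* (-0.079 to 0.068) under torin1, and *Slc7a1* (-0.25 to 0.098) and *Slc1a4* (-0.12 to 0.27) under MK-8722. In the torin1 response *Slc7a1* ran from -0.033 to 0.13, *Slc7a5* from -0.042 to 0.13, *Slc1a4* from -0.21 to 0.020, *Slc1a5* from -0.017 to 0.21 and *Slc6a9* from -0.017 to 0.46. In the MK-8722 response *Slc7a5* ran from -0.067 to 0.36, *Slc7a11* from -0.024 to 0.91, *Slc3a2* from -0.17 to 0.13, *Slc1a4* from -0.20 to 0.19 and *Slc1a5* from -0.27 to 0.13.

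The replicate block moved no count of called members by more than 1.5 times: with it 9 members were lower with torin1 in WT and 2 with MK-8722. The passage block gives no difference between genotypes, because passage is nested in them, and was not run for those. Among the values of levels, transcript shares and most similar genes, 109 moved under another measure. These measures were counts over the leading transcript's length, shares of estimated counts, rank correlation and correlation of group means. A value moved when it differed by at least the SD of its group or left the 2 most similar genes. Causes of these changes were not tested. Counts of 7 to 33 per library limit *Slc7a3* in DKO and *Slc7a11* under torin1, and 4 libraries per group limit the rest.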
